A study of Mus musculus with 4 samples.

Results

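The genes described here encode negative regulators of MAP kinase signaling, most of them acting on the ERK branch: the dual specificity phosphatases Dusp1, Dusp2, Dusp4, Dusp5, Dusp6 and Dusp10, the Sprouty proteins Spry1 and Spry2, and the Sprouty-related proteins Spred1 and Spred2. They were chosen by name, and all 10 were found among the 22554 genes of the table. RNA was sequenced from group 2 innate lymphoid cells (ILC2s) sorted from the lungs of BALB/c mice aged 6 weeks (lineage-negative CD45+ ST2+ CD127+ cells), in 2 libraries cultured with vehicle and 2 cultured with compound 5D, a small molecule that blocks the Orai calcium channels. Both groups received IL-2, IL-7 and IL-33, so the vehicle cells were activated cells too, and the comparison is of activated ILC2s with and without the inhibitor. The culture was overnight by the sample labels and a full day by the study's text, and neither gives the dose of 5D for these libraries or the number of mice behind each.

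In the ERK cascade, active Ras recruits Raf, Raf activates the kinases MEK1 and MEK2, and these activate ERK1 and ERK2. Active ERK drives transcription of genes whose products switch the cascade off again. DUSPs of the MAP kinase phosphatase type remove the activating phosphates from MAP kinases, whereas Sprouty and Spred proteins act higher up, between receptors, Ras and Raf. Many of these transcripts are induced quickly and are short-lived, and those are widely read as a record of recent pathway activity. In lymphocytes the same cascade is engaged by IL-2 receptors and, through Ras activators of the RasGRP family, by signals that also raise calcium.

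Total counts per library lay between 20096555 and 28697265. The deposited values are estimated counts, of which 59.3% to 63.0% per library were within 0.01 of a whole number. Libraries of a group differed beyond counting error over the genes with high counts (9958 with vehicle and 10318 with 5D). Whether they came from separate cultures is not given in the sources used here, so p-values measure the spread between these libraries only. All 13 ILC2 markers had counts in the table, and Gata3 stood at 1091 to 1108 normalized CPM (counts relative to the normalized library total, on the usual CPM scale). At an unadjusted p-value under 0.05, 4 of the 13 were lower with 5D and 1 was higher, beside 3.84% and 3.5% of all tested genes. Of the 13, 0 passed the adjusted threshold in edgeR. The IL-2 receptor alpha chain gene Il2ra had 2221 and 2068 normalized CPM with vehicle and 1771 and 1874 with 5D (edgeR, adjusted p = 0.0878), and Il5 had 4752 and 4710 against 4377 and 4548 (adjusted p = 0.552). The part of these markers in the results was not tested. Of 39 markers of other cell types, 29 were in the table, 5 had 0 counts in all libraries (Cd4, S100a9, Ms4a2, Scgb1a1 and Pdgfra), and 5 had a mean of at least 10 normalized CPM. The summed markers of any other cell type reached at most 31.9 normalized CPM, against 11590 to 12520 for the ILC2 markers. T cell markers summed to 25.6 and 26.1 with vehicle and to 27.2 and 27.7 with 5D, and endothelium and fibroblast markers to 23.9 and 21.3 with vehicle and 19.9 and 15.7 with 5D. Cd3g made up most of the first sum, at 21.6 to 24.6, and Pecam1 most of the second, at 15.7 to 23.7. Cd3e stood at 2.76 to 4.13, and Cd3d, Cd5 and Col1a1 reached at most 0.517 in any library. Whether such cells were present, and their part in the results, was not tested. In bulk RNA, fewer cells that express a gene and less of its RNA per cell cannot be told apart.

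The sequences upstream of the genes are shown first for Spry1, the member with the smallest p-value, and for Dusp1 and Dusp5, whose upstream windows held the searched elements that are least frequent over all windows. RefSeq windows on GRCm38 (mm10) were used for 9 of the members. The 250 bases before each start were searched on both strands for the NFAT core GGAAAA, the cAMP response element TGACGTCA and its core TGACG, the AP-1 site TGANTCA, the ETS core CCGGAA, the TATA box TATAAA and the CArG box, the binding element of serum response factor. Each sequence is printed from its distal end in the direction of transcription and stops at the next annotated exon of the gene, with matches in capitals. The Dusp1 and Dusp10 windows lie inside the annotated genes, which have transcripts that start further upstream.
Spry1, chr3:37639697-37639946, plus strand: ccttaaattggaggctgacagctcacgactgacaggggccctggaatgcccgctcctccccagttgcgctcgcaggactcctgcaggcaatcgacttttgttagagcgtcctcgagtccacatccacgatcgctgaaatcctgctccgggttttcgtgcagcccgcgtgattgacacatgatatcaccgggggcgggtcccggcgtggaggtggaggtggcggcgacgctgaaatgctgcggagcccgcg
Dusp1, chr17:26508520-26508722, minus strand: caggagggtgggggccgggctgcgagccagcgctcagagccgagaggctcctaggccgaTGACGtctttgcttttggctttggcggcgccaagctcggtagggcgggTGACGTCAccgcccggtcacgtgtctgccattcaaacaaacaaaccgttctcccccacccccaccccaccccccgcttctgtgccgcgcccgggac
Dusp5, chr19:53528895-53529108, plus strand: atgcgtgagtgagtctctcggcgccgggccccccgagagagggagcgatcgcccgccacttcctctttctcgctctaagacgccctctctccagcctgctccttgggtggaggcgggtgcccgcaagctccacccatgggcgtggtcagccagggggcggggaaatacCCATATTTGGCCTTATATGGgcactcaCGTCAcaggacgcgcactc
Dusp1 carried the full cAMP response element from base -143 to -136 before the RefSeq start, with the core read once on each strand inside it, and another core from -191 to -187. The full element was found in 1.5% of all 32851 windows. Dusp5 carried 2 CArG boxes side by side, from -82 to -73 and from -72 to -63, and 1.5% of all windows held at least 1. A cAMP response element core was in Dusp1, Dusp5 and Spred2 (17.8% of all windows), and the NFAT core was in Spred2 and Spry2 (20.4%). In Spred2 the cAMP response element core lay from -51 to -47, past the annotated start of the gene. The AP-1 site, ETS core and TATA box letters were in 0 of the 9 windows, against 6.7%, 12.0% and 12.4% of all windows, and Spry1 held none of the 7 motifs. These are matches of letters in a short window, and no binding was measured.

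Levels of different genes were compared as normalized CPM per kb of exon, since longer transcripts collect more reads. Dusp6, the cytoplasmic phosphatase that acts on ERK, dominated the group. Its level per kb was 124.4 and 123.6 with vehicle and 127.8 and 136.3 with 5D, above 97.3% of the tested genes that had a gene model. Summed per kb over the 10 genes, Dusp6 alone made up 57.9% and 57.1% of the total with vehicle and 60.1% and 60.7% with 5D. Spry1 followed at 33.4 and 34.1 per kb with vehicle and 28.1 and 29.3 with 5D. Dusp5, a nuclear phosphatase that is selective for ERK, came next at 24.2 to 27.6 per kb over the 4 libraries. Dusp4, a nuclear phosphatase, stood at 11.2 to 13.6 per kb and Dusp1, a nuclear phosphatase that also acts on p38 and JNK, at 6.23 to 7.43. Spred1 was measured at 3.84 to 4.46 and Spred2 at 2.89 to 3.06 per kb. Dusp10, which prefers p38 and JNK, and Dusp2, a nuclear phosphatase of activated lymphocytes, overlapped with each other at 1.67 to 2.27 and 1.61 to 2.52 per kb. Spry2 was lowest, at 0.371 to 0.718 per kb. Apart from Dusp10 and Dusp2, every neighbor in this order was separated from the next in all 4 libraries. With the longest transcript as the length, Dusp10 and Dusp2 changed places and no other member did.

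**Figure D1:**
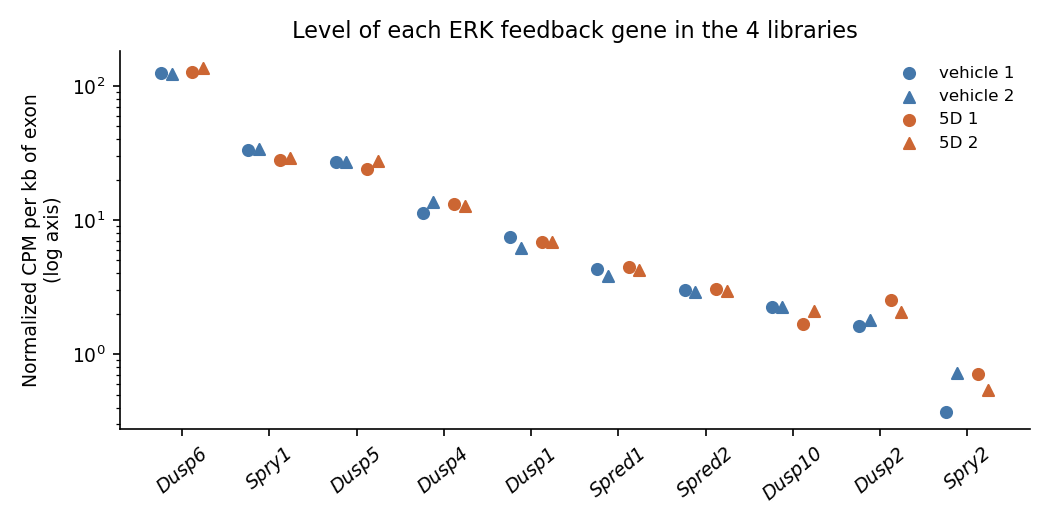
Level of each gene as normalized CPM per kb of exon (log axis) in the 2 vehicle libraries (blue) and the 2 5D libraries (orange), ordered by mean level, with 1 point per library. Dusp6 lies near 128 and Spry2 near 0.583, and the groups nearly coincide for most genes.

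The question put to these libraries is whether blocking calcium entry through Orai channels changes the transcripts of activated ILC2s. For the ERK feedback genes fitted log2 fold changes of 5D over vehicle ran from -0.25 to 0.43, and 0 of the 10 genes passed an adjusted p-value of 0.05 in edgeR's quasi-likelihood test. Over all 17650 genes tested, 0.0963% were called at that threshold. At an unadjusted p-value under 0.05, 1 member was lower with 5D (Spry1) and 0 were higher, beside 3.84% of all tested genes lower, 3.5% higher and 7.34% in either direction. DESeq2's Wald test and limma-voom gave the same counts, 0 members adjusted and 1 unadjusted, although DESeq2 gave no adjusted p-value for Dusp2, Dusp10 and Spry2. The median log2 fold change of the members was 0.046, against -0.0016 for all genes tested. For 9 of the 10 genes, all but Spry2, the 95% interval of the fold change lay inside a 2-fold change in either direction, and for 7 it lay inside a 1.5-fold change.

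Spry1 (ENSMUSG00000037211.12, chromosome 3 of mm10 from 37639947 to 37644598), an inhibitor of receptor-driven Ras activation, was counted 2256 and 1984 times with vehicle and 2215 and 2433 times with 5D. Relative to the normalized totals this was 97.1 and 99.1 normalized CPM with vehicle and 81.6 and 85.1 with 5D. The groups did not overlap, and 5D was the lower one. The log2 fold change was -0.24 (standard error 0.07, 95% interval -0.38 to -0.087), a ratio of 0.850. The unadjusted p-value of edgeR's test was 0.00501 and the adjusted p-value 0.487, so the difference did not hold up over all genes tested. The unadjusted p-value stayed between 0.00381 and 0.00631 over the 9 alternative settings and between 0.00721 and 0.0342 when a library was left out. Its exons share 710 bases with Gm42922 on the opposite strand. Whether the counting used strand is not given in the sources used here, and Gm42922 itself was given 22 to 30 counts per library.

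Dusp6 (ENSMUSG00000019960.8, chromosome 10 from 99263231 to 99267489) was the most precisely measured member, with 9049 and 7750 counts for vehicle and 10865 and 12210 for 5D. In normalized CPM it stood at 389.6 and 387.3 with vehicle and 400.3 and 427.0 with 5D. Both 5D libraries lay above both vehicle libraries, the second by more than the first. The log2 fold change of 0.091 (standard error 0.05) had a 95% interval of -0.013 to 0.19 and an adjusted p-value of 0.736 from edgeR. Without 5D replicate 1 the unadjusted p-value was 0.0336 in the edgeR fit, and with all 4 libraries it was 0.0802.

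Dusp6 and Spry1 lay on opposite sides of their vehicle levels, and their ratio within a library does not depend on the normalization. Dusp6 had 4.01 and 3.91 times the normalized CPM of Spry1 with vehicle and 4.91 and 5.02 times with 5D. The groups did not overlap in this ratio. That outcome was fixed, since neither gene overlapped between the groups and the 2 lay in opposite directions. The ratio was chosen after the values of both genes were seen, and it was not tested. The sums that follow were chosen likewise. Summed per kb, the 4 Sprouty and Spred genes stood at 41.1 and 41.6 with vehicle and at 36.3 and 37.1 with 5D, a sum in which Spry1 has the largest share. The 6 DUSP genes summed to 173.8 and 174.8 with vehicle and to 176.2 and 187.5 with 5D, again not overlapping, with Dusp6 as the largest share. Members of both sums went either way. Of the 6 DUSP genes, 4 had a fitted log2 fold change above 0 and 2 below (Dusp5 and Dusp10). Of the 4 Sprouty and Spred genes, 3 were above 0 and 1 was below (Spry1).

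**Figure D2:**
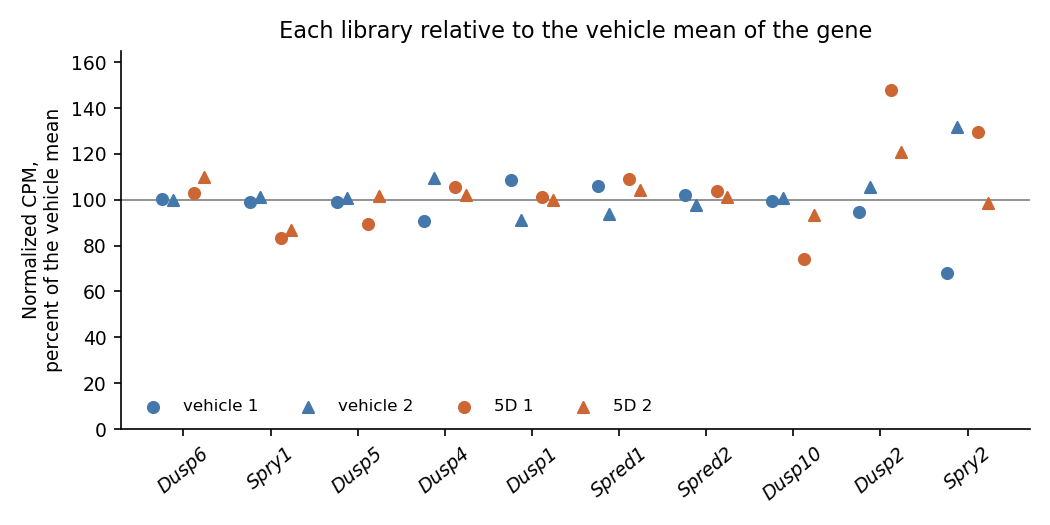
Normalized CPM of each gene in each library as a percentage of the mean of its 2 vehicle libraries (circles replicate 1, triangles replicate 2, blue vehicle, orange 5D, line at 100). The 5D libraries of Spry1 sit at 83.2% and 86.7% and those of Dusp2 at 147.9% and 120.9%, while the vehicle libraries of Spry2 alone span 68.2% to 131.8%.

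Of the 4 nuclear, inducible phosphatases, 1 had groups that did not overlap, beside 37.6% of all tested genes. Dusp2 (ENSMUSG00000027368.6, chromosome 2 from 127336159 to 127338376) had the largest fitted change of the 10 genes. It had 75 and 72 counts with vehicle and 137 and 118 with 5D, or 3.23 and 3.60 against 5.05 and 4.13 normalized CPM. Both 5D libraries were above both vehicle libraries, but the 5D libraries differed from each other by more than the second of them did from the vehicle libraries. The fitted log2 fold change was 0.43 (edgeR standard error 0.26), and the interval of -0.14 to 0.99 spans no change and nearly a doubling (edgeR, adjusted p = 0.778).
Dusp1 (ENSMUSG00000024190.7, chromosome 17 from 26505590 to 26562128) gave 24.6 and 20.6 normalized CPM with vehicle and 22.9 and 22.6 with 5D. Both 5D values lay between the vehicle values, and the log2 fold change was 0.0060 (95% interval -0.27 to 0.28). Dusp4 (ENSMUSG00000031530.6, chromosome 8 from 34807297 to 34819894) showed the same arrangement, with 30.7 and 37.1 normalized CPM with vehicle around 35.8 and 34.7 with 5D. Its log2 fold change was 0.057 (95% interval -0.19 to 0.31). Dusp5 (ENSMUSG00000034765.6, chromosome 19 from 53529109 to 53542431) had 66.6 and 67.6 normalized CPM with vehicle and 59.9 and 68.2 with 5D, so that the groups overlapped. The log2 fold change of Dusp5 was -0.066 (95% interval -0.25 to 0.12). In edgeR the adjusted p-value was 0.997 for Dusp1, 0.957 for Dusp4 and 0.924 for Dusp5. Exons of Dusp5 share 547 bases with AC137853.2 on the opposite strand, a gene that is absent from the authors' counts. Those of Dusp1 share 11 bases with Ergic1.

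Dusp10 (ENSMUSG00000039384.8, chromosome 1 from 184013302 to 184075636) was the other member with both 5D libraries below both vehicle libraries. It was counted 158 and 138 times with vehicle and 138 and 183 times with 5D, which is 6.80 and 6.90 against 5.08 and 6.40 normalized CPM. The vehicle libraries were nearly equal while the 5D libraries differed more from each other than the higher of them did from vehicle. The log2 fold change was -0.25 (standard error 0.21, 95% interval -0.72 to 0.22), with an adjusted p-value of 0.868 from edgeR. Without 5D replicate 1 the log2 fold change was -0.10, and without 5D replicate 2 it was -0.43. In all, the groups did not overlap for 4 members, 2 with 5D above (Dusp2 and Dusp6) and 2 with 5D below (Spry1 and Dusp10), beside 18.7% of all tested genes with 5D above and 18.8% with 5D below.

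Spry2 (ENSMUSG00000022114.5, chromosome 14 from 105891947 to 105896819), which like Spry1 restrains receptor-driven Ras activation, was barely detected. It had 18 and 30 counts with vehicle and 40 and 32 with 5D, or 0.775 and 1.499 against 1.47 and 1.12 normalized CPM. The groups overlapped, and the 95% interval of the log2 fold change, -0.86 to 1.26 around 0.20, includes a doubling. Of the pair, Spry1 was the more abundant per kb in all 4 libraries.
Spred1 and Spred2 bind Ras and Raf and, through neurofibromin, promote inactivation of Ras. Spred1 (ENSMUSG00000027351.14, chromosome 2 from 117121374 to 117182279) had 29.4 and 26.0 normalized CPM with vehicle and 30.3 and 28.9 with 5D. Spred2 (ENSMUSG00000045671.17, chromosome 11 from 19924375 to 20024026) had 13.9 and 13.3 with vehicle and 14.1 and 13.8 with 5D. Vehicle and 5D libraries overlapped for both genes. The log2 fold changes were 0.092 (95% interval -0.16 to 0.34) for Spred1 and 0.035 (95% interval -0.28 to 0.35) for Spred2, and neither passed edgeR's test (adjusted p = 0.920 and 0.985). A stretch of 169 bases in Spred1 transcripts is 95.3% identical to one in Vps35, and one of 179 bases in Spred2 is 96.1% identical to one in Gm14612, so some reads could be split.

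**Figure D3:**
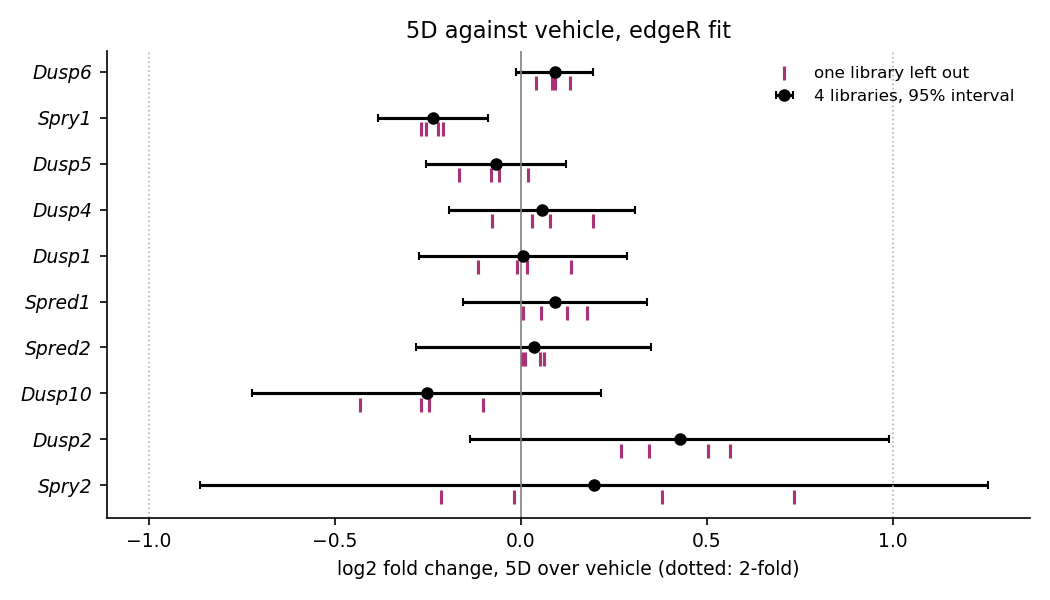
Log2 fold change of 5D over vehicle for each gene from edgeR (black points, bars 95% interval), with the values after leaving out 1 library (purple ticks) and dotted lines at a 2-fold change. The interval of Spry1 alone stays on one side of 0, from -0.38 to -0.087, and that of Spry2 is the widest.

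Most members had transcripts shorter than the median gene, and Spred1 and Spred2 did not. Their exons covered 2003 to 6784 bases with a median of 2974, and 8 of the 10 were below the median of 3434 over the 17364 tested genes with a model. Likewise 8 had fewer exons in their longest transcript than the median of 5, with 2 in Spry1 and Spry2 and 3 in Dusp1 and Dusp6, while Spred1 and Spred2 had 7. These counts were not tested. The genes themselves ranged more widely, from 2218 bases of span for Dusp2 to 99652 for Spred2. The upstream windows of the members had a GC content of 56.0% to 70.8%, with all 9 above the median of 52.4% over all windows.

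The profile of Spry1 over the 4 libraries was most like those of Sqle, Agpat2 and Hsd17b7. The Euclidean distances between centered log2 profiles were 0.0173, 0.0185 and 0.0196, the smallest among 8730 genes with a mean of at least 10 normalized CPM. Sqle had 106.3 and 108.4 normalized CPM with vehicle and 89.1 and 91.8 with 5D. With 4 libraries, such a likeness is a description only.

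The pathway around the feedback genes was read through 6 lists, of which 82 genes were tested. Of these, 0 passed an adjusted p-value of 0.05 in edgeR, 3 were higher (3.66%) and 9 were lower (11.0%) at an unadjusted p-value under 0.05, beside 3.5% and 3.84% of all tested genes. These 12 genes at the unadjusted threshold became 7 without 5D replicate 2 and 9 with DESeq2. DESeq2's Wald test and limma-voom each gave 1 gene past the adjusted threshold (Lif). The Ras to ERK cascade itself was expressed throughout, with all 27 listed genes tested and a median log2 fold change of 0.011. Hras, one of the Ras GTPases, was lower at an unadjusted p-value, with 89.5 and 92.0 normalized CPM with vehicle and 81.8 and 75.6 with 5D (log2 fold change -0.21, standard error 0.07, adjusted p = 0.566 from edgeR). Rasgrp4 and Rasa3, an activator and an inactivator of Ras-family GTPases, were higher at an unadjusted p-value, with log2 fold changes of 0.48 and 0.33 and an adjusted p-value of 0.621 for each in edgeR, although the groups overlapped for Rasa3. The listed gene with the highest CPM was Rasal3, at 603.6 and 606.5 with vehicle and 591.5 and 574.2 with 5D.

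Among transcripts that ERK is known to induce, 19 of 20 were tested, with a median log2 fold change of -0.084. At the unadjusted threshold of 0.05, 4 were lower (21.1%) and 0 were higher, beside 3.84% and 3.5% of all tested genes. Lif, a cytokine of the IL-6 family, had 431 and 377 counts with vehicle and 287 and 284 with 5D, or 18.6 and 18.8 against 10.6 and 9.93 normalized CPM. The 5D values lay well below the vehicle values. edgeR gave a log2 fold change of -0.87 with standard error 0.14 and adjusted p = 0.0642. The adjusted p-value ran from 0.00311 to 0.0693 over the 9 alternatives, under 0.05 in 5 of them, and reached 0.279 when a library was left out. Egr2, Phlda1 and Junb were the others, with log2 fold changes of -0.94, -0.26 and -0.17 (edgeR, adjusted p = 0.612, 0.520 and 0.517). Mcl1, the listed gene with the highest CPM and a survival factor of the BCL2 family, stood at 265.0 and 260.5 with vehicle and 254.5 and 262.5 with 5D. At the unadjusted threshold 1 of 10 feedback genes, 4 of 19 induced transcripts and 4 of 13 ILC2 markers were lower, beside 3.84% of all tested genes, and differences between the lists were not tested. The lists were chosen with earlier results of these data known, and ERK activity itself was not measured in these libraries.

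In the p38 and JNK cascade, on which Dusp1 and Dusp10 also act, 1 of 15 genes was higher and 3 were lower at the unadjusted threshold. Over all tested genes 3.5% were higher and 3.84% lower. The list had a median log2 fold change of -0.047. Map3k1, a kinase at the head of the JNK branch, had 33.3 and 42.1 normalized CPM with vehicle and 25.4 and 28.8 with 5D (log2 fold change -0.47, standard error 0.13, adjusted p = 0.443 from edgeR). Map2k6, which activates p38, had 11.2 and 11.2 with vehicle and 15.4 and 15.9 with 5D (log2 fold change 0.48, standard error 0.15, adjusted p = 0.520 from edgeR). Mapk14, the p38 alpha kinase, and its substrate kinase Mapkapk2 were lower at the unadjusted threshold, with log2 fold changes of -0.15 and -0.12 (edgeR, adjusted p = 0.640 and 0.612). The listed gene with the highest CPM, Map2k3, was measured at 307.3 and 310.9 with vehicle and 294.5 and 293.8 with 5D.

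Of 5 further MAP kinase phosphatase genes 3 were tested, and 0 were called at an unadjusted p-value by edgeR. Dusp7, the cytoplasmic relative of Dusp6, stood at 52.3 and 49.4 normalized CPM with vehicle and 49.9 and 50.3 with 5D. Dusp16, which had the smallest p-value of the 3 and acts on JNK and p38, was measured at 4.52 and 3.35 with vehicle and 3.06 and 5.46 with 5D. These groups overlapped for both genes. Of 12 atypical DUSP genes 9 were tested and 0 were called at an unadjusted p-value, with a median log2 fold change of 0.066. The smallest p-value there was that of Dusp3, with 9.34 and 7.15 normalized CPM with vehicle and 5.60 and 6.99 with 5D (adjusted p = 0.754 from edgeR). Dusp11, which acts on RNA and had the highest CPM there, stood at 79.8 and 77.1 with vehicle and 80.7 and 89.3 with 5D. Among 9 tested genes of further Sprouty and Spred proteins and their partners, the ubiquitin ligase gene Cbl was lower at an unadjusted p-value. It had 41.5 and 43.7 normalized CPM with vehicle and 37.3 and 35.7 with 5D (log2 fold change -0.22, standard error 0.10, adjusted p = 0.641 from edgeR). Nedd4, a further ubiquitin ligase and the partner with the highest CPM, had 164.6 and 159.8 with vehicle and 179.6 and 163.6 with 5D.

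**Figure D4:**
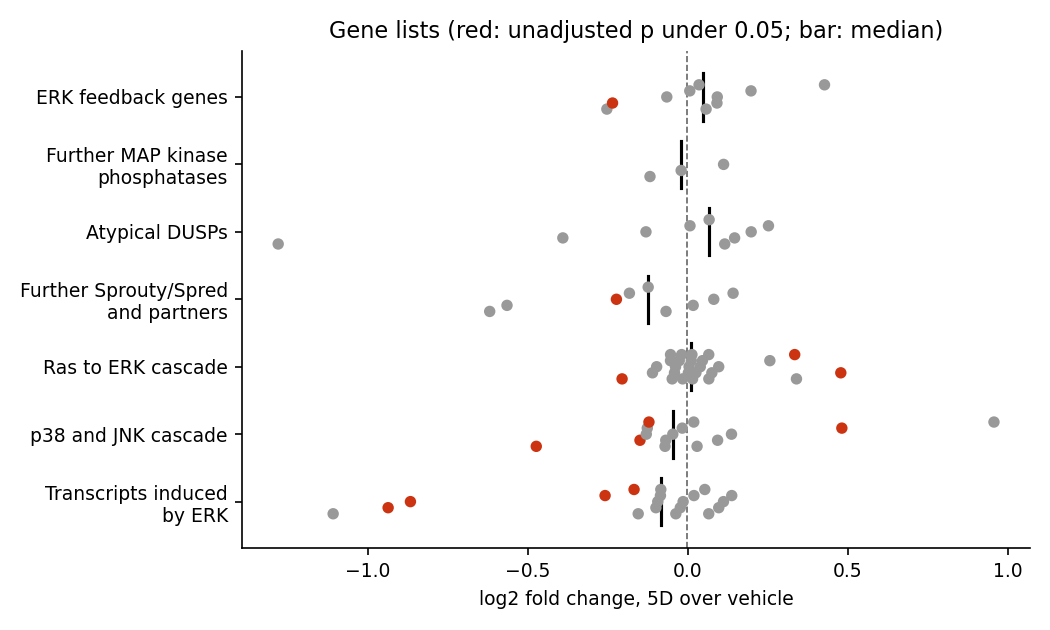
Log2 fold change of 5D over vehicle for the tested genes of the ERK feedback group and of the 6 pathway lists (each point a gene, red where the unadjusted edgeR p-value is under 0.05, black bar the list median, dashed line the median of all genes tested). Of the ERK-induced transcripts 4 of 19 are red and lie left of 0, and of the feedback genes 1 of 10 is red.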

How the data were processed

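RNA was measured in 2 vehicle and 2 5D libraries of lung ILC2s. The authors aligned the reads to mm10 (STAR 2.6.1, per the labels), quantified them in Partek with GENCODE M21, and deposited estimated counts per gene before normalization, which were rounded here. Library totals (20096555 to 28697265) limit precision mainly for Spry2. Following the study's methods, upper-quartile factors were used. A gene was tested if its normalized counts averaged at least 1 and summed to at least 10, which left 17650 of 22554 genes.

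5D was compared with vehicle by edgeR 4.0.16 (quasi-likelihood test, two-sided, no covariates, Benjamini-Hochberg adjustment over all genes tested) in R 4.3.3. The authors' own differential test was run in Partek and was not used here. A standard error is the size of the log2 fold change divided by the root of the F statistic. An exact permutation test of 2 against 2 libraries has 0.333 as its smallest p, so none was made. Levels per kb used the union of GENCODE M21 exons. Near-identical transcripts were searched with blastn 2.17.0 (at least 150 bases, 95% identity). The code was tested on simulated data.

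Named genes are all members, genes of a list past an adjusted p-value of 0.05 or otherwise the one with the smallest p-value, the gene of a list with the highest CPM, and the 3 closest profiles to the member with the smallest p-value. Marker genes, and genes called at an unadjusted p-value, were named after their values were seen. The members and lists were chosen with earlier results of these data known. Alternatives were TMM, DESeq2 1.42.0 size factors, library totals, no filter, filterByExpr, DESeq2's Wald test, limma-voom (3.58.1), the replicate number as a block, unrounded counts, another transcript length, and leaving out each library, where the lone library of a group is assumed to vary like the others.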

Additional observations from a re-analysis of the deposited data

How the results depend on the processing

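No member with an adjusted p-value passed 0.05 under any of the 9 alternatives or the 4 fits without a library, and Spry1 was under an unadjusted 0.05 in all of them. Leaving out 1 library changed the number of members under an unadjusted 0.05 to between 1 and 2, Dusp6 being added without 5D replicate 1, and the median log2 fold change to between -0.0080 (without vehicle replicate 1) and 0.047. Signs turned only when a library was left out: Dusp1 ranged from -0.12 to 0.14, Dusp4 from -0.078 to 0.20, Dusp5 from -0.16 to 0.021 and Spry2 from -0.21 to 0.74. The 6 pathway lists held 0 genes past an adjusted 0.05, and 1 (Lif) with no filter, filterByExpr, DESeq2's Wald test, limma-voom and the replicate block. Without a library this count was 0 to 3, with Map3k1 and Rasa3 added to Lif without vehicle replicate 1, and the count at an unadjusted p-value was 7 to 13, lowest without 5D replicate 2. The deviations of libraries with the same number had a correlation of 0.060 over 8740 genes. With 2 libraries per group this cannot show whether they were paired, which the sources used here do not give. With the replicate block 1 member was under an unadjusted 0.05, as without it. The share of Dusp6 in the summed level was 60.2% with the longest transcript and 59.0% with all exons. Spry2, at 18 to 40 counts, is limited by depth.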
